A study of Mus musculus with 8 samples.

Results

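The interferon-stimulated effector genes are 35 named genes whose products act against viruses and intracellular microbes downstream of the interferon receptors. They were chosen by name: a member is a gene on the list with a probe of that name on the array, and its level is that of its brightest kept probe over all 8 arrays. All 35 had a probe and passed the filter on dim probes, among 19286 genes tested. The data are 1-colour Agilent arrays of total RNA from bone marrow-derived macrophages, which are macrophages grown in culture from marrow precursors, of male C57BL/6J mice. Cultures of 4 mice were each transfected with a control siRNA and with siRNAs against the loop end of the Y RNAs, small non-coding RNAs bound by the Ro60 protein, which gives 4 control arrays and 4 Y RNA siRNA arrays. No genetic change is given for any group, every culture received an siRNA, and no untransfected culture was measured, so the levels below are levels after transfection. Age, siRNA sequence, dose and harvest time were not stated.

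Type I interferons signal through a receptor with JAK1 and TYK2 bound to it, and the transcription factor complex this activates, which holds IRF9, binds the interferon-stimulated response element (ISRE) in the promoters of these genes. Interferon gamma signals through JAK1 and JAK2 to the gamma-activated site (GAS), and the guanylate-binding proteins and immunity-related GTPases are known as strongly induced by it. Macrophages in culture are known to keep many of these genes switched on at a low level through small amounts of their own type I interferon.

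The promoters are shown first, because they carry the sequence that is known to tie these genes together. RefSeq promoter windows (GRCm38.p6, 250 bases before to 50 bases after each transcription start) were at hand for 26 of the 35 genes. The ISRE core was searched as TTTCNNTTTC on both strands (GAAANNGAAA on the other), and the GAS core as TTCNNNGAA, which reads alike on both strands. The ISRE core occurred in 17 of the 26 genes (65.4%), in 12 of 33 further interferon-stimulated genes with a window (36.4%), and in 3.99% of all 27025 genes with a window. The GAS core occurred in 9 of the 26 genes (34.6%), in 18.2% of the further interferon-stimulated genes and in 9.55% of all genes. In 2 windows, those of Bst2 and Ifitm3, an ISRE core and a GAS core overlap. At least 2 matches to the ISRE core lay in 1 window in 9 of the 26 genes, and Trim30a had 1 match in each of its 2 windows. Of all matches, 24 of 28 lay before the start. A match is a stretch of letters and not a measured binding site. The stretches below lie before the start of genes whose signals are described further on, and are written 5′ to 3′ on the strand of the gene, with the ISRE cores in capitals; where copies overlap, the capitals run through them.
Oas3, chr5:120777685-120777774, minus strand: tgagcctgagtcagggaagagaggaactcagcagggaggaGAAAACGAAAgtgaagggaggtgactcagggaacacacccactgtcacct
Oas1a, chr5:120907526-120907585, minus strand: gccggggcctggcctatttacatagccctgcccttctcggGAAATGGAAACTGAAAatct
Oas1g, chr5:120887614-120887671, minus strand: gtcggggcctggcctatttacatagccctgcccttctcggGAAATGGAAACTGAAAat
Bst2, chr8:71537547-71537642, minus strand: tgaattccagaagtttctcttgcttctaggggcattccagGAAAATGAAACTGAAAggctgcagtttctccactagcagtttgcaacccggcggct
Trim30a, chr7:104465194-104465269, minus strand: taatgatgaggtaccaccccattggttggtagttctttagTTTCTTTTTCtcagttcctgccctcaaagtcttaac
Oas1a, Oas1g and Bst2 each hold 2 overlapping copies of the core, and Oas3 and Trim30a hold 1. The Oas1a and Oas1g stretches are near copies of each other, as are the genes, so signal of one on the other's probe is possible and the split of signal between them is uncertain.

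Levels are given as log2 signal relative to the 75th percentile of the same array, so 0 is the 75th percentile and a difference of 1 is a 2-fold change. A level here is that of a probe, and levels of different probes do not rank the amounts of their RNAs. After control siRNA the signal was above the 75th percentile for 33 of the 35 genes, against 55.5% of all genes tested (the percentile is that of the array's probes, dim ones included), and 7 lay in the top 10% of all genes tested. The highest control levels were those of Bst2, or tetherin, which holds budding virus on the cell surface, at 7.05 ± 0.18 (SD, n = 4), Ifitm3, which blocks virus entry from endosomes, at 6.95 ± 0.32 (SD, n = 4), Ifi204, a DNA-binding protein of the PYHIN family, at 6.54 ± 0.22 (SD, n = 4), and Oas1a, an oligoadenylate synthetase, at 6.47 ± 0.21 (SD, n = 4). Neighbours in this order, Bst2 and Ifitm3 as well as Ifi204 and Oas1a, lay within their spread over mice. The lowest were Oas1g at -4.86 ± 0.81 (SD, n = 4), Iigp1, an immunity-related GTPase, at -0.77 ± 0.32 (SD, n = 4), Gbp5, a guanylate-binding protein, at 0.45 ± 0.17 (SD, n = 4), and Mx2, a dynamin-like GTPase, at 0.69 ± 0.31 (SD, n = 4). The probes of 34 genes were well above background on all 8 arrays. Oas1g was so on 6 of 8, not on either array of mouse 1, and another Oas1g probe was so on 0 of 8, so its values in mouse 1 are bounds rather than levels. Close relatives on the list (Mx1 and Mx2, Ifi203 and Ifi204, Gbp2 and Gbp3) may also share signal.

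**Figure D1:**
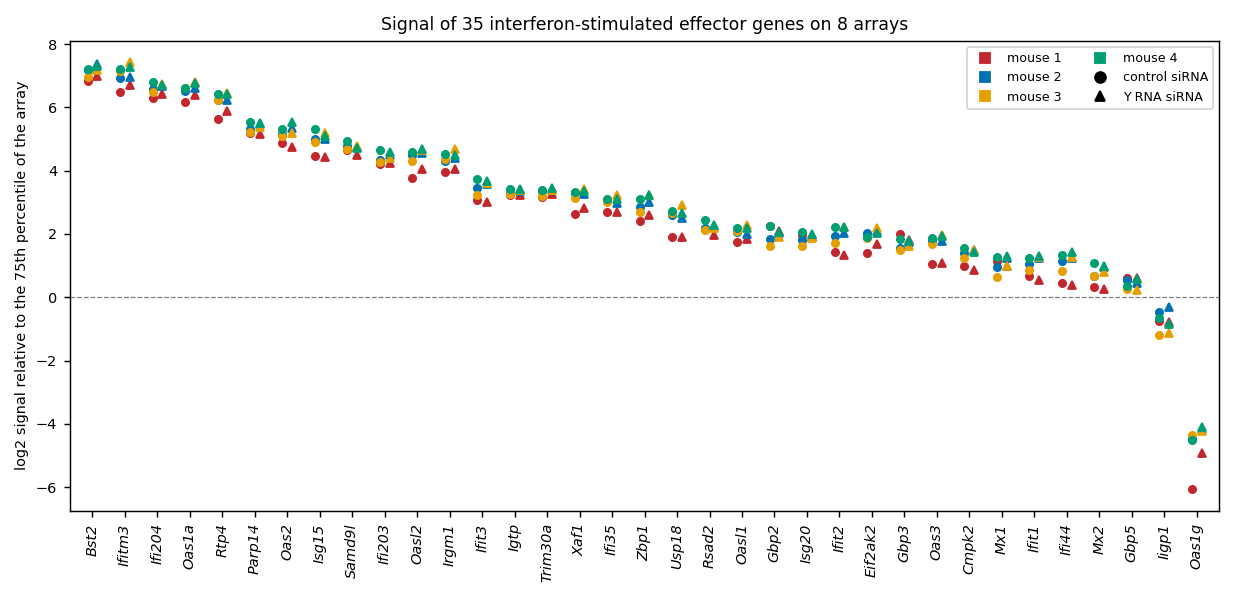
Level of each of the 35 genes (log2 signal relative to the array's 75th percentile) on the 4 control and 4 Y RNA siRNA arrays, 1 point per array, marked by group and mouse. Points of a gene lie close together compared with the distance between genes, and the points of mouse 1 are at the low end for most genes.

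The macrophages of mouse 1 had the lowest levels of 29 of the 35 genes in the mean of their 2 arrays, against 33% of all genes (mouse 3 had the lowest levels of the other 6, against 32.9%, and mice 2 and 4 of 0, against 17.6% and 16.4%), and both arrays of mouse 1 lay below the other 6 for 26 of the 35 (22 to 26 over the scalings run), against 15.2% of all genes. Relative to the mean of the other mice, the median gene was lower in mouse 1 by a log2 difference of -0.457, which is 1.37-fold, and genes well above background on all 8 arrays ranged from -0.807 for Ifi44 to 0.234, while the median over all genes was 0.0113. Mouse 4 was highest for 23 of the 35 genes, against 23.6% of all genes. The order from low to high was mouse 1, 3, 2, 4 for 15 genes, an order seen in 4.47% of all genes. The mice differed in 6 of the 35 genes at an adjusted p under 0.05 (limma's F test with 3 degrees of freedom, siRNA group in the fit, Benjamini-Hochberg over all genes), against 4.72% of all genes: Oas3, Ifitm3, Usp18, Oasl2, Oas1a and Iigp1. The first 5 of these were lowest in mouse 1, against 2.19% of all genes that passed and were lowest there. At an unadjusted p under 0.05 the counts were 27 of 35 and 29.7%. The number of calls rests on the full set of arrays: without any 1 of the 8 arrays it was 0, and without both arrays of mouse 1, 2, 3 or 4 it was 0, 6, 2 and 0. The count over all genes, 909, also moved, to between 81 and 551 without 1 array and to 2, 1222, 165 and 336 without mouse 1, 2, 3 or 4.

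The oligoadenylate synthetases make the second messenger that switches on RNase L, which cuts viral and cellular RNA. All 6 effector genes of the family (Oas1a, Oas1g, Oas2, Oas3, Oasl1 and Oasl2) had both arrays of mouse 1 below the other 6, and 3 of them passed the test between mice. Their relative Oas1b, on the further list described at the end, did not show this. It had means of 5.26, 5.20, 5.32 and 5.26 in mice 1 to 4 and was lowest in mouse 2. Oas3, whose probe lies at chr5:121203598-121203657 (mm9), measured 1.06, 1.78, 1.69 and 1.88 in mice 1 to 4 after control siRNA and 1.08, 1.79, 1.97 and 1.95 after Y RNA siRNA. Mouse 1 stood apart from the other 3 mice in both groups, and the groups overlapped. The adjusted p between mice was 0.0292 (limma), the smallest of the 35 genes. Oasl2, an oligoadenylate synthetase-like protein (chr5:115362168-115362227), measured 3.77, 4.49, 4.32 and 4.58 in the control cultures and 4.04, 4.56, 4.67 and 4.67 in the Y RNA siRNA cultures, with an adjusted p between mice of 0.0473 (limma). Oas1a (chr5:121346735-121346794) measured 6.16, 6.50, 6.61 and 6.62 in the control cultures and 6.38, 6.60, 6.81 and 6.75 in the Y RNA siRNA cultures, with an adjusted p of 0.0483 (limma). In both genes mouse 1 was lowest in each group, and Oas1a covered a smaller range. Oas1g measured -6.07, -4.49, -4.36 and -4.51 after control siRNA and -4.92, -4.18, -4.22 and -4.11 after Y RNA siRNA. Its lowest values were the 2 arrays of mouse 1, on which the probe was not well above background, and the adjusted p between mice was 0.102 (limma). Oas2 and Oasl1 ranged over the mice by 0.624 and 0.389, with adjusted p-values of 0.0734 and 0.0878 (limma).

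Usp18, the protease that takes ISG15 off its targets and dampens signalling of the type I receptor (chr6:121220874-121220933), measured 1.90, 2.61, 2.65 and 2.72 in mice 1 to 4 after control siRNA and 1.89, 2.51, 2.92 and 2.68 after Y RNA siRNA. The 2 arrays of mouse 1 were at almost the same level, below every array of the other mice, and the adjusted p between mice was 0.0421 (limma). Isg15 itself, the ubiquitin-like modifier, had means of 4.45, 5.00, 5.06 and 5.21 in mice 1 to 4 and an adjusted p of 0.0788 (limma). Among the membrane proteins, Ifitm3 (chr7:148195591-148195650) measured 6.50, 6.93, 7.16 and 7.20 in the control cultures and 6.69, 6.94, 7.43 and 7.26 in the Y RNA siRNA cultures. Mouse 1 was lowest and mouse 3 highest in the mean, and the adjusted p was 0.0403 (limma). Bst2 measured 6.84, 7.17, 6.96 and 7.22 after control siRNA and 6.98, 7.37, 7.19 and 7.31 after Y RNA siRNA, with mouse 1 lowest in each group, but its Y RNA siRNA array of mouse 1 was above the control array of mouse 3. Rtp4, a receptor transporter protein, had means of 5.76, 6.22, 6.34 and 6.42 in mice 1 to 4.

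Ifit1, Ifit2 and Ifit3, which bind foreign RNA and hinder its translation, all had both arrays of mouse 1 below the other 6, with ranges over the mice of 0.660, 0.839 and 0.661 and adjusted p-values between mice from 0.0978 to 0.117 (limma). Among proteins that bind nucleic acid, Eif2ak2, the kinase PKR that stops translation on double-stranded RNA, measured 1.41, 2.04, 1.88 and 1.89 after control siRNA and 1.67, 2.10, 2.17 and 2.04 after Y RNA siRNA. Zbp1, a sensor of Z-form nucleic acid that can start necroptosis, measured 2.41, 2.86, 2.68 and 3.11 after control siRNA and 2.61, 3.01, 3.23 and 3.23 after Y RNA siRNA. In both, mouse 1 was lowest in each group. Ifi204 measured 6.29, 6.57, 6.50 and 6.81 after control siRNA and 6.42, 6.67, 6.74 and 6.71 after Y RNA siRNA, and again mouse 1 was lowest in each group. Adjusted p-values between mice were 0.0586 for Eif2ak2, 0.102 for Zbp1 and 0.149 for Ifi204 (limma), all above 0.05, and Ifi203 had the same order of mice as Ifi204.

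Ifi44, an interferon-induced protein that restrains virus growth, measured 0.44, 1.14, 0.84 and 1.35 in the control cultures and 0.37, 1.23, 1.29 and 1.41 in the Y RNA siRNA cultures. Mouse 1 lay lowest in both groups, the range over the mice was 0.977, and the adjusted p was 0.0575 (limma), just above the threshold. Trim30a, a tripartite-motif protein, measured 3.17, 3.35, 3.20 and 3.40 after control siRNA and 3.28, 3.39, 3.39 and 3.46 after Y RNA siRNA. Its differences between mice were small, with a range of 0.205. Xaf1, a pro-apoptotic protein, Ifi35 and Parp14, an ADP-ribosyltransferase, all had both arrays of mouse 1 below the other 6 with the probes used. The other kept Xaf1 probe, dimmer with levels from -3.12 to -2.66, did not, and after Y RNA siRNA it was highest in mouse 1. Among enzymes acting on nucleotides and RNA, Cmpk2, a mitochondrial nucleotide kinase, and Samd9l, a growth-restricting antiviral factor, also had both arrays of mouse 1 below the other 6. The other kept Cmpk2 probe did not. Rsad2, or viperin, was lowest in mouse 1 in the mean and after Y RNA siRNA but lowest in mouse 3 after control siRNA. Isg20, an exonuclease, was lowest in mouse 3 with the probe used. Its other kept probe was lowest in mouse 3 after control siRNA (0.26) but in mouse 1 after Y RNA siRNA (-0.07). Mx2 measured 0.32, 0.68, 0.66 and 1.09 after control siRNA and 0.27, 0.95, 0.79 and 0.98 after Y RNA siRNA, with mouse 1 lowest in both groups. Mx1, its relative, was lowest in mouse 3.

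The 3 guanylate-binding proteins among the effector genes, which belong to a family that coats and opens the vacuoles of intracellular microbes, had another order, though none passed the test between mice. Gbp2, Gbp3 and Gbp5 were all lowest in mouse 3 and highest in mouse 1 in the mean. From low to high the order was mouse 3, 2, 4, 1 for Gbp2 and Gbp3, as in 13.2% of all genes. For Gbp5 it was mouse 3, 4, 2, 1, as in 6.81% of all genes. Gbp5 measured 0.62, 0.55, 0.25 and 0.36 in mice 1 to 4 after control siRNA and 0.61, 0.45, 0.23 and 0.57 after Y RNA siRNA. Both arrays of mouse 3 were lowest, and the adjusted p between mice was 0.155 (limma). Of their relatives on the further list described at the end, Gbp6 and Gbp9 had both arrays of mouse 1 lowest, Gbp7 was lowest in mouse 3 and Gbp4 in mouse 2. Of the immunity-related GTPases, Iigp1 measured -0.74, -0.45, -1.21 and -0.67 after control siRNA and -0.79, -0.29, -1.12 and -0.83 after Y RNA siRNA. It was lowest in mouse 3 and highest in mouse 2, with an adjusted p of 0.0499 (limma), close to the threshold. Over the other scalings that p ran from 0.0190 with normexp background correction to 0.0639 with median centring (limma). The other kept Iigp1 probe was lowest in mouse 3 after control siRNA (-2.56) but in mouse 1 after Y RNA siRNA (-2.42). Irgm1 and Igtp were lowest in mouse 1. With the probes used, Gbp2, Gbp3, Gbp5 and Iigp1 were lowest in mouse 3 in the mean under all 6 ways of scaling the arrays that were run.

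**Figure D2:**
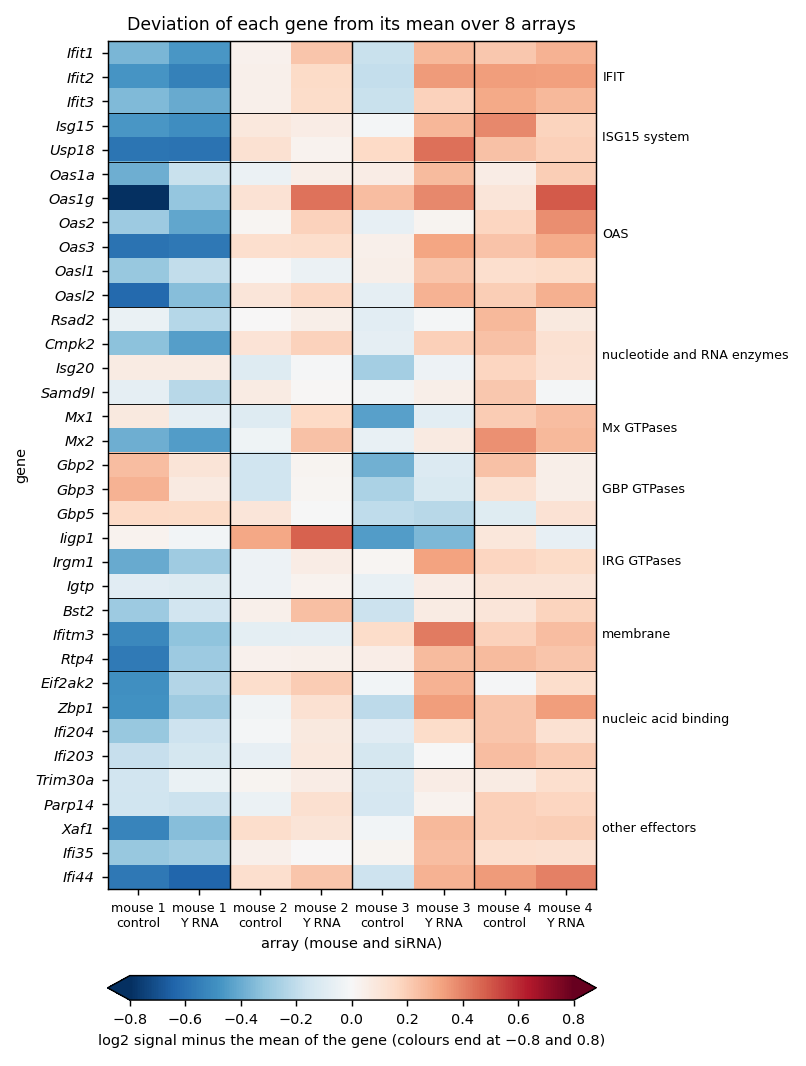
Deviation of each gene from its own mean over the 8 arrays (log2), by array and mouse. Most genes are below their mean on both arrays of mouse 1, with medians of -0.326 and -0.277 there, and Gbp2, Gbp3 and Gbp5 are below it in mouse 3.

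Split over mouse, siRNA and the rest, the mouse (3 degrees of freedom, against 1 for the siRNA) took a median of 84.1% of a gene's sum of squares over the 8 arrays (62.1% to 95.8%), against 66.7% over all genes, and 33 of the 35 genes were above that all-gene median. The siRNA took a median of 5.28%, against 5.76%. The median range between mouse means was 0.531, against 0.254 over all genes.

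**Figure D3:**
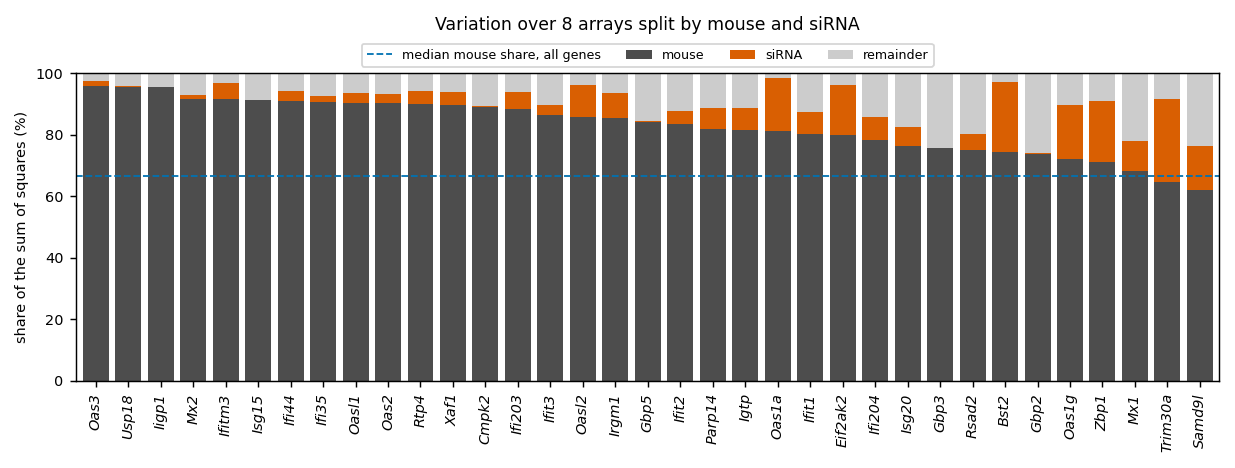
Percent of each gene's sum of squares over 8 arrays taken by mouse, by siRNA and by the rest. The mouse takes 62.1% to 95.8% in the 35 genes, and its median over all genes is 66.7%.

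Other measures moved with the mice. Before scaling, the log2 75th percentile of an array was 9.04 on both arrays of mouse 1 and lay between 9.19 and 9.34 on the other 6. All 8 macrophage markers (Adgre1, Csf1r, Cd68, Itgam, Fcgr1, Mertk, Cd14 and Lyz2) were detected. Of these, 6 were highest in mouse 1, against 36.4% of all genes, and 7 lowest in mouse 3, against 32.9%. The test between mice was passed by 2 of the 8, Cd14 (adjusted p 0.0464, limma) and Lyz2 (0.0483, limma), both highest in mouse 1. The summed linear level of the 8 markers, with the 75th percentile as 1, ranged from 1389 to 1626 on the control arrays and from 1369 to 1625 on the Y RNA siRNA arrays. Of 5 fibroblast markers, 4 were kept and Pdgfra was not, and all 4 had both arrays of mouse 1 below the other 6. The test between mice was passed by 1 of them, Col1a1 (adjusted p 0.0471, limma), and not by Col1a2 (0.0609), Dcn (0.280) or Col3a1 (0.299). The Col3a1 probe was well above background on only 6 of 8 arrays. The summed level of those 4 was 0.920, 1.79, 2.30 and 2.73 in mice 1 to 4, and ranged from 0.782 to 2.66 on the control arrays and from 1.06 to 2.90 on the Y RNA siRNA arrays. Col1a1 measured -2.57, -1.32, -0.89 and -0.70 in the control cultures and -2.06, -1.26, -1.11 and -0.82 in the Y RNA siRNA cultures. Pf4, in the erythroid and megakaryocyte list of which 4 of 5 genes were not kept, had both arrays of mouse 1 below the other 6. The conventional dendritic cell markers (0 of 5 kept) were not detected, and 3 of 6 neutrophil, 2 of 6 T and NK cell, 4 of 5 plasmacytoid dendritic cell, 1 of 4 B cell and 1 of 4 mast cell and basophil markers were kept. The neutrophil marker Mpo had both arrays of mouse 1 below the other 6, with means of -4.60, -3.15, -2.27 and -2.76 in mice 1 to 4. Its adjusted p was 0.0138 (limma), and its probe was well above background on only 6 of 8 arrays. The other kept neutrophil markers did not show this. Camp was lowest in mouse 3, and Elane was lowest in mouse 1 only in the mean. Among plasmacytoid dendritic cell markers Cox6a2 showed it, with means of -0.39, 0.79, 0.69 and 0.55 and an adjusted p of 0.0395 (limma). The other kept ones did not. Siglech, the brightest, was highest in mouse 1, with means of 6.59, 6.51, 6.48 and 6.45. Klk1 was lowest in mouse 3 and Ccr9 in mouse 2. In pooled cells, fewer cells of a type and less RNA per cell cannot be told apart, and the part of these measures in the differences between mice was not tested. The first slide row held mice 1 and 2, the second held mice 3 and 4. Mice 1 and 3 lay in columns 3 and 4, and mice 2 and 4 in columns 1 and 2. The 2 arrays of a mouse were thus neighbours on the slide. The effect of the place on the slide cannot be told apart from that of the mouse.

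The siRNA comparison was made, per the series title, to find targets of small RNAs derived from the Y RNAs. The Y RNAs are not among the gene names on the array, so how far the siRNAs lowered them was not measured here. No gene of the 35 passed the test, and most had a slightly higher mean after Y RNA siRNA. With limma's two-sided test, 0 of the 35 genes and 0 of the 19286 tested (0%) had an adjusted p under 0.05, and at an unadjusted p under 0.05 the counts were 0 of 35 and 656 of 19286 (3.4%). The mean was higher after Y RNA siRNA for 33 of the 35 genes, against 52.3% of all genes, and lower for Rsad2 and Samd9l. With each array centred on its median the counts were 33 of 35 and 65.5%, and the other scalings gave 30 to 32 of 35 and 48.4% to 49.6%. The median difference was 0.0915 (log2, Y RNA siRNA minus control), against 0.00456 over all genes, and it ran from -0.087 for Samd9l to 0.501 for Oas1g. Standard errors had a median of 0.159, and 28 of the 35 differences were smaller than their standard error. These standard errors, and the intervals that follow, come from the fit that leaves out the mouse, so they hold the spread between mice. In the fixed-block fit described below, each of the 35 genes had a smaller standard error, from 0.0401 for Oas1a to 0.180 for Oas1g. For Bst2 it was 0.0432 against 0.116, and for Oas3 0.0596 against 0.246. The count of 28 holds only for the fit without the mouse. The 95% interval of the difference lay inside a 2-fold change for 34 genes, all but Oas1g, and inside a 1.5-fold change for 26; over all genes these counts were 18428 and 16336 of 19286. Because the cultures of a mouse go together, the fit with the mouse as a fixed block was also made: 0 of 35 and 0 of 19286 then passed, with 6 of 35 at an unadjusted p under 0.05 (17.1%, against 9.27% of all genes), and all 6 were higher (17.1%, against 4.7%). With the mouse as a random block 11 of 19286 genes passed (0.057%), and 0 were members; 1 of 35 had an unadjusted p under 0.05, against 9.54% of all genes.

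The size of the difference varied from mouse to mouse. The number of genes higher after Y RNA siRNA was 16 in mouse 1, 28 in mouse 2, 34 in mouse 3 and 16 in mouse 4, against 56.3%, 51.4%, 55.2% and 44.6% of all genes. The median difference was -0.004, 0.091, 0.236 and -0.002 in mice 1 to 4. Mouse 3 had the most positive difference for 25 of the 35 genes, against 21.9% of all genes, and mice 1, 2 and 4 for 3, 5 and 2, against 32.4%, 27.2% and 18.5%. A gene was higher in 4 of 4 mice in 9 of the 35, against 10.4% of all genes, and lower in 4 of 4 in 0, against 8.86%. The groups overlapped in all 35 genes; 1.34% of all genes were higher and 1.09% lower without overlap. The median difference was 0.0138 without control replicate 1, when 21 genes were higher, and 0.217 without Y RNA siRNA replicate 1. It was 0.182 without control replicate 4, whose RNA integrity number was 8 where the other 7 samples had 10, 0.0577 without Y RNA siRNA replicate 3 and 0.0308 without Y RNA siRNA replicate 4. In each of these fits the other array of the mouse stayed in, with no block for the mouse. The level of that mouse then entered 1 group only. Within slide row 1 the median difference was 0.0444 and within row 2 it was 0.120. Slide columns 1 and 3 held the Y RNA siRNA arrays and columns 2 and 4 the control arrays, so the effect of column cannot be told apart from that of the siRNA.

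The 9 genes higher in every mouse were Bst2, Trim30a, Zbp1, Oas1g, Oas1a, Eif2ak2, Oasl2, Ifitm3 and Oas3. For Bst2 the levels given above put the difference at 0.17 ± 0.12 (SE, n = 4), with a 95% interval of -0.10 to 0.43 and an unadjusted p of 0.191 (limma), or 0.0132 with the mouse as a fixed block, which was 0.416 after adjustment. Oas1a differed by 0.16 ± 0.13 (SE, n = 4), with 0.257 and, with the block, 0.0111 as unadjusted p-values (limma). For Eif2ak2 the difference was 0.19 ± 0.16 (SE, n = 4), with a blocked unadjusted p of 0.0169 (limma), and for Zbp1 it was 0.25 ± 0.19 (SE, n = 4), with a blocked unadjusted p of 0.0315 (limma). Both genes were higher in 4 of 4 mice, Zbp1 most in mouse 3. Oasl2 differed by 0.20 ± 0.21 (SE, n = 4) and Oas1g by 0.50 ± 0.39 (SE, n = 4); the Oas1g value rests on mouse 1, where the difference was 1.15 and the probe was not well above background on either array, against 0.139 to 0.399 in the other mice, and with normexp background correction it was 0.0952. Trim30a differed by 0.10 ± 0.07 (SE, n = 4), and Samd9l, the gene with the most negative difference, measured 4.65, 4.79, 4.70 and 4.94 after control siRNA and 4.51, 4.74, 4.77 and 4.71 after Y RNA siRNA, a difference of -0.09 ± 0.09 (SE, n = 4) that was below 0 in 3 of 4 mice. After adjustment none of these values passed the threshold in any fit: the smallest adjusted p among the 35 genes was 0.413 when the mouse was a fixed block and 0.49988 when it was random (limma). The differences of Gbp3, Gbp5, Iigp1 and Isg15 were under 0.03 and changed sign with the scaling of the arrays.

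The rest of the interferon pathway was measured from lists chosen by role. None of its genes had an adjusted p under 0.05 for the siRNA difference (limma). Of 5 interferon genes, Ifnb1, Ifna4 and Ifng were not kept, and the other two were Ifna2, with a control level of -3.86 ± 0.45 (SD, n = 4), and Ifnl3. Of 5 receptor genes 4 were tested and 3 had a lower mean after Y RNA siRNA; Ifnar2, a chain of the type I receptor, had the smallest p and differed by 0.08 ± 0.06 (SE, n = 4). Of 6 genes of signal transduction 4 were higher, and Jak2 differed by 0.10 ± 0.05 (SE, n = 4). Stat2, a subunit of the ISRE-binding complex, had means of 3.86, 4.27, 4.16 and 4.36 in mice 1 to 4 and both arrays of mouse 1 below the other 6, with an adjusted p between mice of 0.0529 (limma). Of 6 interferon regulatory factors 4 were higher and Irf5 differed by -0.11 ± 0.07 (SE, n = 4). Irf7, which amplifies type I interferon, had means of 1.32, 1.76, 1.81 and 2.03 in mice 1 to 4 and the same low mouse (adjusted p 0.0534, limma), whereas Irf1 (4.71, 4.37, 4.16 and 4.57) and Irf8 (5.95, 5.71, 5.44 and 5.73) were highest in mouse 1 and lowest in mouse 3. Of 9 RNA and DNA sensors 6 were higher, with 0.12 ± 0.07 (SE, n = 4) for Sting1, the adaptor of cytosolic DNA sensing, and of 4 feedback inhibitors 3 were higher, with -0.10 ± 0.05 (SE, n = 4) for the phosphatase Ptpn6.

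A further 40 interferon-stimulated genes, of 43 listed, were tested for comparison. After Y RNA siRNA 30 had a higher mean, the median difference was 0.0778, and 3 had an unadjusted p under 0.05: Tap1, the peptide transporter of class I presentation, at 0.24 ± 0.07 (SE, n = 4), Psmb9, an immunoproteasome subunit, at 0.13 ± 0.05 (SE, n = 4), and Nlrc5, the activator of class I genes, at 0.16 ± 0.06 (SE, n = 4). All 3 were higher in 4 of 4 mice and none passed adjustment (limma). Between mice 1 of the 40 passed, Gbp9, with means of 1.01, 1.56, 1.38 and 1.67 in mice 1 to 4 and an adjusted p of 0.0181 (limma). Both arrays of mouse 1 lay below the other 6 in 13 of the 40, against 26 of the 35 effector genes and 15.2% of all genes; the difference between the lists was not tested. Among the effector genes with a promoter window, 11 of the 17 with an ISRE core and 8 of the 9 without one had both arrays of mouse 1 below the other 6, so the pattern was seen with and without a match.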

How the data were processed

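Per the file headers, the deposited scanner files hold linear intensity values made with Agilent Feature Extraction 10.7.3.1, background-subtracted and detrended but not normalized between arrays, with probe positions on mm9. A table of log2 values was also deposited by the authors; its method and centring are not stated (column medians 6.26 to 6.28), and it was used as an alternative. Each array has 62976 spots, of which 48.7% to 50.7% were well above background and 0 were saturated. All arrays lay on 1 slide, and their number limits the precision.

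Levels are log2 of the processed intensity minus the array's 75th percentile. Control spots and outlier spots were left out, a probe was kept if well above background on 4 or more of the 8 arrays (26820 of 55681), and the brightest kept probe stood for a gene. The groups were compared in limma 3.58.1 (R 4.3.3; lmFit, eBayes, Benjamini-Hochberg over all genes, threshold 0.05), without a block in the main fit; the code was tested on simulated data. Replicate numbers are taken as mice because the design text names 4 mice and deviations of same-numbered arrays correlated (r = 0.618, 0.155, 0.580 and 0.285 for mice 1 to 4; the control array of mouse 2 correlated best with number 3, the other 7 arrays with their own number); p-values measure only the spread between these cultures. Outliers within a group were looked for with Dixon's criterion. Values of every array are given for the 8 genes with the smallest p for siRNA and the 8 with the smallest for mouse, and the 4 highest and 4 lowest control levels. The members, lists and tests were chosen with earlier results of these data known. Promoter and gene names come from RefSeq (GRCm38.p6), to which 26762 probes were matched. Other scalings, filters, probe rules, blocks and left-out arrays were run as alternatives. Probe sequences are not shown, and lists of interferon, cell type and pathway genes are described by counts.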

Additional observations from a re-analysis of the deposited data

Results flagged for a closer look

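6 values stood apart within their group of 4 arrays, by the gap to the nearest other array as a share of the group's range (Dixon's criterion at the 95% level), and in all 6 the array of mouse 1 was the lowest. In the Y RNA siRNA cultures Ifit1 had the value 0.928 (level 0.56, nearest 1.25), Cmpk2 0.894 (0.87, nearest 1.43), Oas1g 0.865 (-4.92, nearest -4.22) and Ifit3 0.833 (3.01, nearest 3.57). In the control cultures Oas1g had 0.911 (-6.07, nearest -4.51) and Usp18 0.866 (1.90, nearest 2.61). The Oas1g probe was not well above background on either of these arrays. Of 70 groups checked, 6 were past the critical value; chance puts about 1 in 20 groups past it, and the genes share arrays and mice, so these are not independent.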

How the results depend on the processing

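For the siRNA difference over all genes, 0 passed in the fits run, except for 11 with the random replicate block (0.057% of all genes; block correlation 0.534); with the fixed replicate block 0 passed. The median difference of the 35 genes, 0.0915, lay between 0.0754 and 0.121 under the other scalings, filters and probe rules. It lay between 0.0138 and 0.217 when 1 array was left out and the other array of its mouse was kept. Leaving out both arrays of a mouse (chosen after seeing the data for the difference between mice) gave 0.0960, 0.0869, 0.0354 and 0.110 for mice 1 to 4. The number of the 35 genes that differed between mice, 6, was 23 with normexp background correction and 17 with the deposited value table, and 0 without a filter on dim probes, while the count over all genes, 909, was 3317, 1884 and 173; the cause was not tested. It was 0 when any 1 array was left out, and 0, 6, 2 and 0 when both arrays of mouse 1, 2, 3 or 4 were left out. It was 7 with quantile scaling, 4 with median centring, 6 with the 75th percentile of detected probes, 9 with probes above background on all 8 arrays and 4 with the mean of all kept probes. Among the 35 genes, only Oas1g was not well above background on all 8 arrays.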

Other observations

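Among genes on the further interferon-stimulated list, the chemokine Cxcl10, chosen after its values were seen, measured 2.42, 1.01, 1.29 and 1.71 in mice 1 to 4 after control siRNA and 2.06, 1.14, 1.14 and 1.16 after Y RNA siRNA, highest in mouse 1 in both groups (adjusted p between mice 0.0646, limma). The 12 effector genes with other kept probes had 14 of these, of which 11 were lowest in mouse 1, 9 had both arrays of mouse 1 below the other 6, and 11 were higher after Y RNA siRNA; those of Cmpk2 and Isg20 differed in sign from the probe used.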
